A study of Mus musculus with 90 samples.

Results

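Genes that cells switch on when they sense type I interferon were followed through 90 mouse melanomas that had or had not shrunk under an antibody against PD-L1. The set was a list of 39 such genes, taken by symbol. Of these, 37 had an array probe set that names no other gene and were measured, out of 18194 genes measured in all. Isg15 had only a probe set that it shares with another gene, and Ifi44 had no probe set with its symbol, so both are not analysed here. One probe set, the brightest over all arrays, stood for each gene. All values are deposited log2 intensities, on which a difference of 1 is a doubling of signal. The level of a probe set is compared between tumours, never with that of another probe set. The list was taken by symbol, but with earlier results of these data known, and the probe sets were picked by their mean level.

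All tumours were subcutaneous melanomas with the genotype label Hgftg;Cdk4R24C/R24C and strain label B6.cBrd, so the Hgf transgene and the Cdk4 change were shared by every group, controls included. They were allografts, so each tumour had the host's own stroma and immune cells beside the melanoma cells. Treated mice received 10 mg/kg of the anti-PD-L1 antibody clone 80, a mouse IgG1 with the D265A change that weakens binding to Fc receptors, control mice received 10 mg/kg of mouse IgG1 with the same change, and vehicle mice received 10 ml/kg of PBS. The study sorted treated tumours by growth. Responders (17 in study 2 and 10 in study 3) had lost at least 5% of their volume, non-responders (14 and 9) grew on, and relapses (3 and 3) regrew after falling below a measurable size. Stabilization (3, study 3 only) meant no volume change between 2 consecutive measurements, and growth delay (2, study 2 only) meant that a tumour first appeared after treatment. There were 14 and 8 IgG tumours and 3 and 4 PBS tumours. Promoter and cell type of the transgene, ages and sexes are not given in the sources used here. Each tumour carried its own animal number, so spreads are between animals.

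Type I interferons, the alpha and beta interferons, bind a receptor that most cells carry. The receptor's kinases activate STAT2, which joins IRF9 in a complex that binds the interferon stimulated response element (ISRE) in front of target genes. The products detect viral nucleic acid, block translation, degrade RNA, attach the ubiquitin-like protein ISG15 and carry or curb the signal itself. Interferon gamma, made mainly by T and natural killer cells, uses another receptor and a different DNA element, the gamma activated sequence (GAS), but raises many of the same genes. In tumours, both interferons are known for their roles in antigen presentation and T cell attraction.

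Promoter sequences show what the set shares at the level of DNA. RefSeq promoter windows (assembly GRCm38.p6, 250 bases before to 50 after a start site) matched 27 of the 37 genes. The ISRE core was searched as GAAA, any 2 bases and GAAA again, on both strands (TTTC, any 2 bases and TTTC on the printed strand where the core lies on the other). The GAS core was searched as TTC, any 3 bases and GAA, which reads the same on both strands. At least 1 ISRE core lay in 12 of the 27 windows (44.4%), against 3.63% of the 14453 measured genes with a window. A GAS core lay in 6 of 27 (22.2%), against 8.57%. The lists of other interferon stimulated genes and of interferon gamma response genes, read further below, had similar ISRE shares, 11 of 25 windows and 43.75%. The ISRE core therefore did not set the 37 genes apart from these lists. A GAS core lay in 4 of 25 and 31.25% of their windows. Within the set, both cores were present in 4 genes, and in 2 their letters overlapped. The 250 bases before the start are printed below for 6 genes that the results turn on, 5 with an ISRE core before the start and Epsti1, the gene with the steepest relation to Ifng, with none in its window; capitals mark the ISRE core. The genes are Ifit1 (chr19:34640639-34640888, plus strand), Ifit3 (chr19:34583279-34583528, plus strand), Oas3 (chr5:120777660-120777909, minus strand), Stat2 (chr10:128270248-128270497, plus strand), Bst2 (chr8:71537473-71537722, minus strand) and Epsti1 (chr14:77903989-77904238, plus strand).
Ifit1: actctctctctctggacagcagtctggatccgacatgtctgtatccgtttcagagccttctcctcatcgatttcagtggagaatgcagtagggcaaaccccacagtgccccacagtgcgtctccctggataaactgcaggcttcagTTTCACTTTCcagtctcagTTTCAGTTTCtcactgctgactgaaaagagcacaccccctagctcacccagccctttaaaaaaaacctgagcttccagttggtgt
Ifit3: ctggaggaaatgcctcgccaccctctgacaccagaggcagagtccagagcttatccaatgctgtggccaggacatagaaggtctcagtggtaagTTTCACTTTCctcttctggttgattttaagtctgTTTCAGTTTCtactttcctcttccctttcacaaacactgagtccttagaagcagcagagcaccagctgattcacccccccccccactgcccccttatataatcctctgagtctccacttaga
Oas3: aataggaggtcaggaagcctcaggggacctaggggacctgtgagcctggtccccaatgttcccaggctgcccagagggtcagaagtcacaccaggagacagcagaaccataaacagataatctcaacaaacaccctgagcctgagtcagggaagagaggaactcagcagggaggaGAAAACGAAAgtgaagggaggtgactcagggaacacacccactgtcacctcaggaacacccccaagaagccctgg
Stat2: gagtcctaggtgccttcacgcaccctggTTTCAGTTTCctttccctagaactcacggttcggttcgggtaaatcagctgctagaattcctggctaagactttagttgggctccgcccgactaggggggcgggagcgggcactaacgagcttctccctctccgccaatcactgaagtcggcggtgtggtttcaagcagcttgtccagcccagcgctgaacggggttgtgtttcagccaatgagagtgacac
Bst2: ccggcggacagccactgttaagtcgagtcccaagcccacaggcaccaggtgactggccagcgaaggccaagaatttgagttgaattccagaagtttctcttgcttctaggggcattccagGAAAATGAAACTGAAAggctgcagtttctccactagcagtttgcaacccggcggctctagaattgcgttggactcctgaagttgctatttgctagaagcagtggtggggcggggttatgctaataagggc
Epsti1: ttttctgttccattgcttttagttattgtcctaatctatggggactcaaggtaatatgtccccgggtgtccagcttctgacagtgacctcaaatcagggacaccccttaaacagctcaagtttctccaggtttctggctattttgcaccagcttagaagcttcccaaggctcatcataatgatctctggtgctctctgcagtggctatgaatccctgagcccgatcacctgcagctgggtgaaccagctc
Ifit1 and Ifit3, both in the Ifit cluster on chromosome 19, each have 2 cores, and the 2 cores of Bst2 share letters. The cores start 104 and 85 bases before the start site in Ifit1, 156 and 122 before it in Ifit3, 75 in Oas3, and at position -222 in Stat2. A match is a description of letters and not evidence that a factor binds there, and no match speaks only of this window.

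Some tumours stand apart in ways that touch these genes. The mean of 8 melanocyte markers (Pmel, Mlana, Dct and others) was 10.27 at the median of all tumours, but 6.45 and 6.58 in study 3 responder replicates 4 and 3 and 6.74 in study 3 stabilization replicate 1. It was 8.44 in study 2 nonresponder replicate 14 and 8.96 in study 3 stabilization replicate 2. The mean of B cell markers was 11.52 in study 2 nonresponder replicate 14 and 11.57 in study 3 responder replicate 3. Its median over all tumours was 5.55. Study 3 responder replicate 4 had the highest mean of skeletal muscle markers, 12.39, against a median of 5.62. In bulk tissue, fewer cells of a type and less RNA per cell cannot be told apart. T cell and macrophage markers moved with response. All 7 T cell markers and all 7 macrophage markers rose in responders against non-responders, and 3 of 8 melanocyte markers fell. Of all genes 18.9% rose and 32.3% fell (limma, adjusted p under 0.05), so the melanocyte count is near the share of all genes. The mean of the T cell markers (lowest, median and highest) was 5.68, 6.57 and 10.07 in study 2 non-responders and 6.07, 7.36 and 8.62 in responders, where the highest non-responder was replicate 14. In study 3 it was 5.85, 6.79 and 7.11 in non-responders and 7.07, 8.22 and 10.04 in responders. The part that these cells have in the differences below was not tested. Study 3 PBS replicate 2 had a 3 prime to 5 prime difference of the control transcripts of 5.2, against a median of 0.035 over all arrays. In both studies animal numbers run in separate blocks for vehicle, control antibody and treated mice. Treatment and number block therefore cannot be told apart.

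Across the 12 groups the interferon stimulated genes were highest in relapsed and responding tumours. Averaged over the 37 genes, the level was 10.20 ± 0.22 (mean ± SD, log2) in study 2 relapses, 10.02 ± 0.28 in responders, 9.81 ± 0.03 in growth delay, 9.76 ± 0.16 in PBS, 9.76 ± 0.25 in non-responders and 9.71 ± 0.36 in IgG tumours. In study 3 it was 10.04 ± 0.07 in relapses, 9.91 ± 0.37 in responders, 9.75 ± 0.15 in non-responders, 9.63 ± 0.24 in IgG, 9.60 ± 0.65 in stabilized and 9.30 ± 0.21 in PBS tumours. Neighbours in this order differed by less than their spread, and responders overlapped IgG and non-responder tumours in both studies. Study 3 relapses lay wholly above study 3 IgG tumours. Of the 37 genes, 19 had their highest group mean in study 2 relapses and 8 in study 3 relapses, while 23 were lowest in study 3 PBS tumours and 11 in stabilized tumours. The share of all genes with such extremes was not computed. These groups hold only 3 or 4 tumours each, and this ranking runs across the studies. Labels do not say if both were normalized at once, and 9.5% of all genes differed between their IgG tumours (limma, adjusted p under 0.05).

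**Figure D1:**
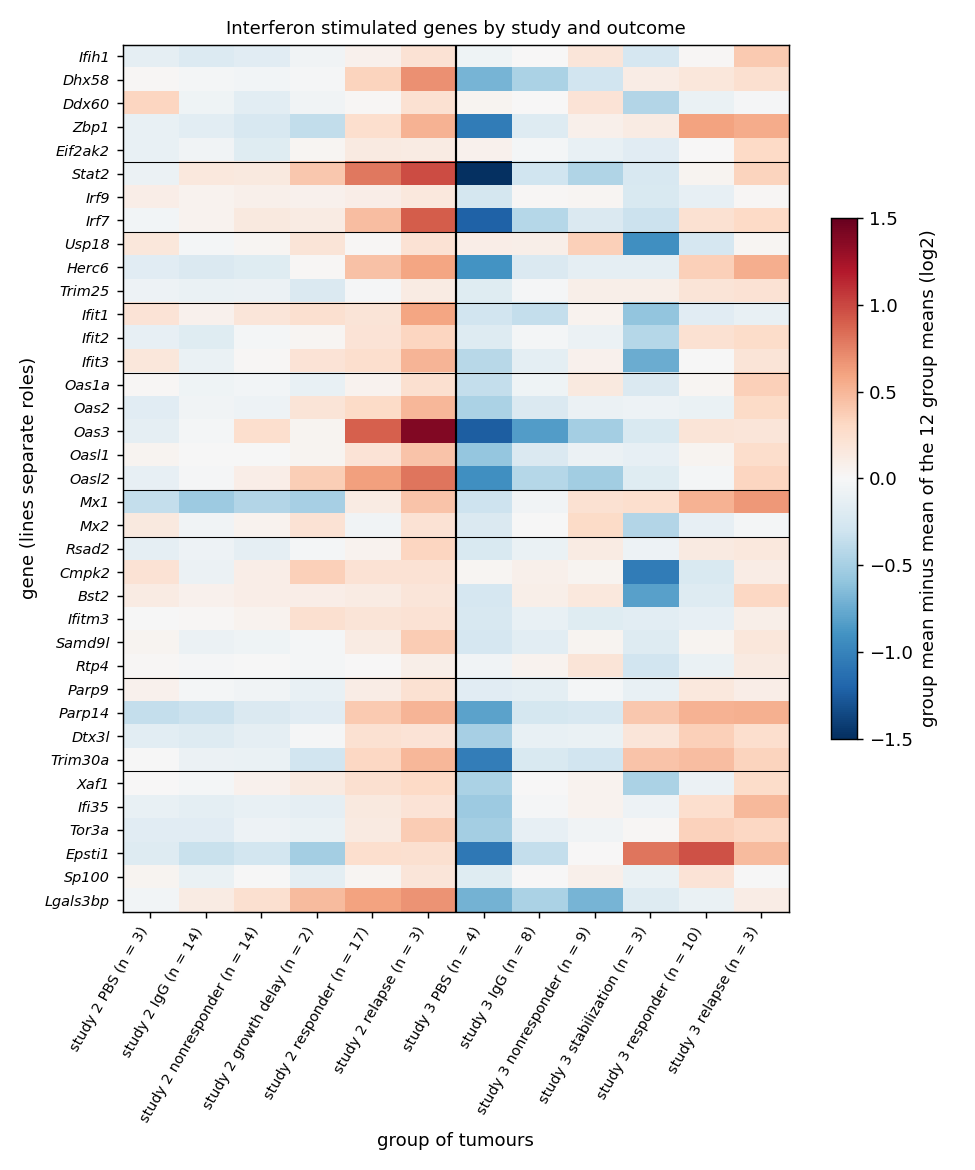
Group means of the 37 genes (rows, lines separate roles) in the 12 groups (columns, n in brackets), each minus the gene's mean over the 12 group means, on the log2 scale and coloured from -1.5 (blue) to 1.5 (red). Oas3, Stat2 and Irf7 are red in study 2 responders and relapses and blue in study 3 PBS tumours, and Usp18, Cmpk2 and Bst2 are blue in stabilized tumours.

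**Figure D2:**
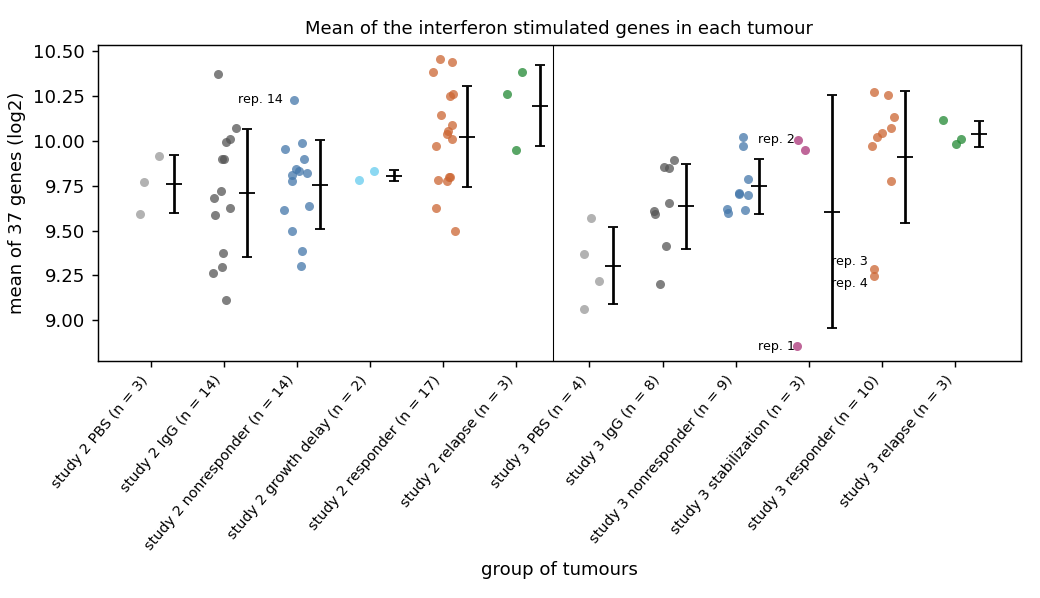
Mean log2 level of the 37 genes in each of 90 tumours, by study and outcome (n in brackets), with the group mean and SD as bars. Labels give the replicate numbers of the 5 tumours with few melanocyte transcripts; study 3 stabilization replicate 1 is the lowest of all tumours at 8.86.

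Individual genes show the range of these profiles. Oas3 averaged 7.21 ± 0.38 in PBS, 7.31 ± 0.72 in IgG, 7.60 ± 0.89 in non-responder, 7.39 ± 0.22 in growth delay, 8.24 ± 0.99 in responder and 8.73 ± 0.77 in relapsed tumours of study 2 (mean ± SD, log2). In study 3 it averaged 6.11 ± 1.0 in PBS, 6.51 ± 0.49 in IgG, 6.84 ± 0.22 in non-responder, 7.11 ± 0.57 in stabilized, 7.54 ± 0.43 in responder and 7.53 ± 0.07 in relapsed tumours. All 5 outcomes found in both studies had a lower Oas3 mean in study 3. Stat2 averaged 7.82 ± 0.30 in PBS, 8.06 ± 0.67 in IgG, 8.06 ± 0.61 in non-responder, 8.31 ± 0.40 in growth delay, 8.71 ± 0.61 in responder and 8.88 ± 0.79 in relapsed tumours of study 2, and 6.14 ± 0.91 in PBS, 7.61 ± 0.50 in IgG, 7.46 ± 0.32 in non-responder, 7.66 ± 0.62 in stabilized, 7.95 ± 0.49 in responder and 8.24 ± 0.08 in relapsed tumours of study 3. Its lowest group was study 3 PBS. Usp18 averaged 10.74 ± 0.04 in PBS, 10.54 ± 0.26 in IgG, 10.61 ± 0.17 in non-responder, 10.76 ± 0.08 in growth delay, 10.59 ± 0.26 in responder and 10.79 ± 0.31 in relapsed tumours of study 2, and 10.67 ± 0.31 in PBS, 10.66 ± 0.14 in IgG, 10.93 ± 0.24 in non-responder, 9.66 ± 1.42 in stabilized, 10.32 ± 0.84 in responder and 10.60 ± 0.26 in relapsed tumours of study 3. Usp18 varied little across study 2, and its wide spreads were those of study 3 responders and stabilized tumours. Epsti1 averaged 9.50 ± 0.43 in PBS, 9.36 ± 0.83 in IgG, 9.43 ± 1.01 in non-responder, 9.20 ± 0.81 in growth delay, 9.96 ± 0.65 in responder and 9.95 ± 0.49 in relapsed tumours of study 2, and 8.62 ± 1.04 in PBS, 9.35 ± 0.64 in IgG, 9.70 ± 0.66 in non-responder, 10.50 ± 0.76 in stabilized, 10.66 ± 0.49 in responder and 10.18 ± 0.16 in relapsed tumours of study 3, with its highest group mean in study 3 responders.

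The genes also had a larger spread at the median than all genes. Their median SD among tumours of a group was 0.38, against 0.23 over all genes, and the median range of the 12 group means was 1.02, against 0.56. Mean levels of the 37 lay at the 51.1 to 99.6 percentiles of all gene means, so only the values over all genes include dim genes. The spread was not compared among genes of like level. By limma's moderated F test over the 12 groups, 26 of 37 passed an adjusted p of 0.05, a share close to that of all genes (71.5%).

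The first question was whether tumours that shrank under anti-PD-L1 differed from treated tumours that did not. With both studies weighted equally, 17 of the 37 genes rose in responders and 2 fell, while 18.9% of all genes rose and 32.3% fell, 51.2% in all (limma, adjusted p under 0.05). The median difference of the 37 was 0.18 log2 and that of all genes -0.06, and 28 of 37 were above 0. All 37 lie above the median level of all genes. In a fit of only such genes 27.4% rose and 25.2% fell, with a median difference of 0.01. Epsti1, Parp14, Oas3, Trim30a and Stat2 had the largest rises, and Usp18 and Mx2 fell. After centring each array on its median, 13 of the 37 rose and 4 fell, against 12.4% and 51.6% of all genes. Ifng itself, the interferon gamma gene, rose by 1.61 ± 0.26 (adjusted p = 2.36e-05).

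**Figure D3:**
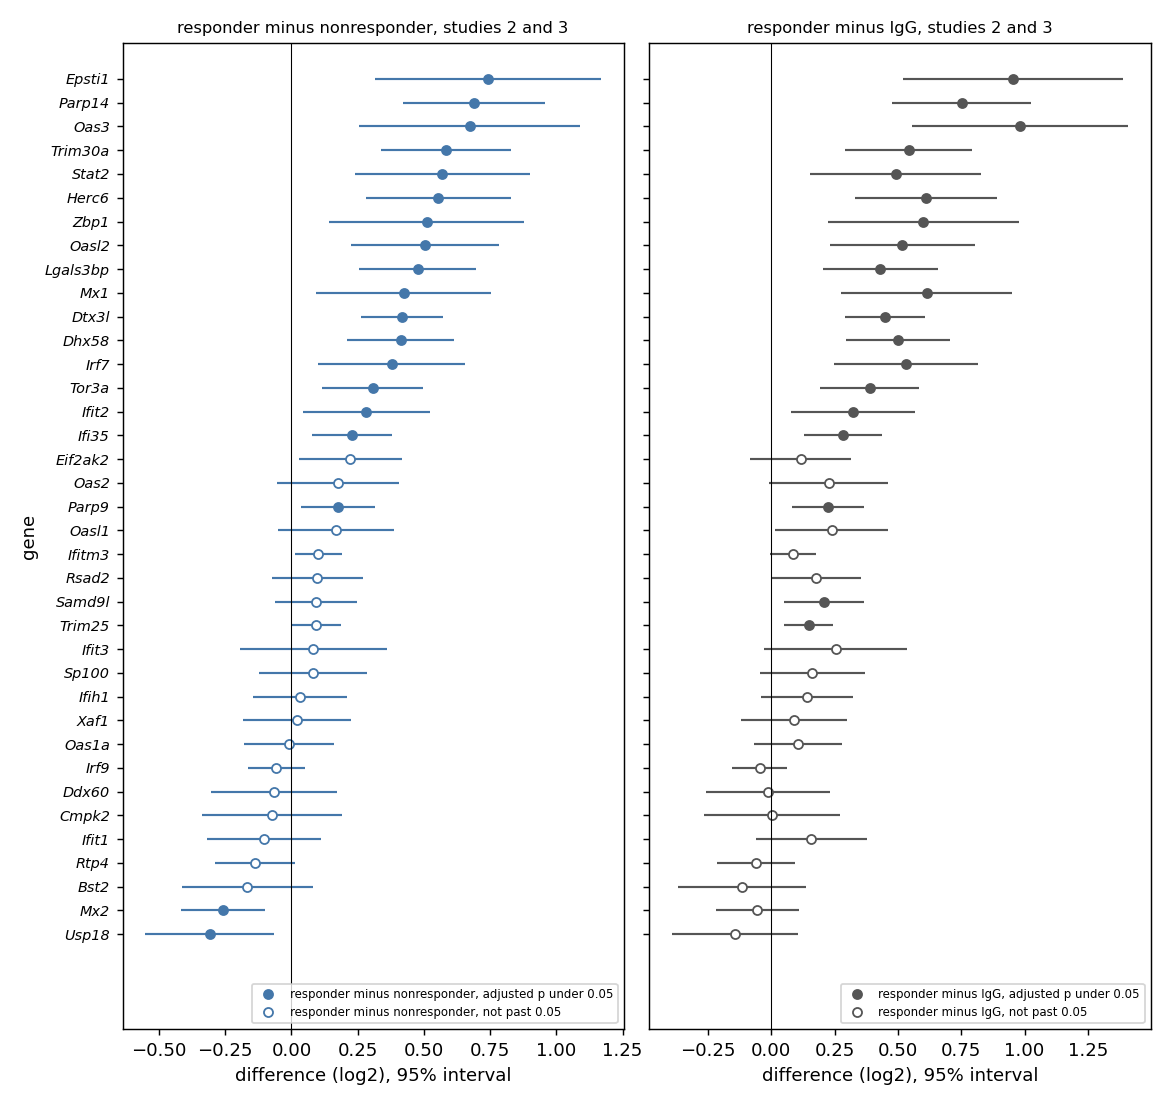
Difference of each gene between responders and non-responders (left) and between responders and IgG tumours (right), averaged over studies 2 and 3, with limma's 95% interval, in log2; filled points passed an adjusted p of 0.05. The same genes are in the same order in both panels; 17 points on the left are filled above 0 and 2 below, and 19 on the right are filled, all above 0.

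Among the sensors of nucleic acid, Dhx58 and Zbp1 rose and Ifih1, Ddx60 and Eif2ak2 did not pass. Dhx58 (LGP2), a helicase that tunes the response to viral RNA, had values (lowest, median and highest) of 7.40, 7.87 and 8.94 in study 2 non-responders and 7.71, 8.33 and 8.83 in responders. In study 3 these were 7.40, 7.68 and 7.92 in non-responders and 7.55, 8.04 and 8.76 in responders. The groups overlapped, but 15 of 17 and 9 of 10 responders lay above the non-responder median. The difference was 0.41 ± 0.10 (SE), with an adjusted p of 0.00126 by limma. Zbp1, a sensor of unusual double-stranded nucleic acid that can start cell death, had 7.74, 9.49 and 10.45 in non-responders and 8.12, 9.74 and 10.70 in responders in study 2, and 8.91, 9.70 and 10.08 in non-responders and 8.99, 10.21 and 10.73 in responders in study 3. The ranges overlapped in both, and Zbp1 rose by 0.51 ± 0.19 (adjusted p = 0.0188). Ifih1 (MDA5), which detects long viral RNA, differed by 0.03 with a 95% interval of -0.14 to 0.21. Eif2ak2 (PKR), the kinase that stops translation on viral RNA, differed by 0.22 with an adjusted p of 0.0511.

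Of the 3 signal carriers, Stat2 and Irf7 rose and Irf9 did not. Stat2, the transcription factor that the receptor activates, had 6.94, 8.02 and 9.07 in study 2 non-responders and 7.62, 8.72 and 9.83 in responders. The study 3 values were 6.86, 7.56 and 7.88 in non-responders and 7.07, 8.09 and 8.49 in responders. Most responders were above the non-responder median (15 of 17 and 8 of 10), within overlapping ranges. The difference was 0.57 ± 0.17 (adjusted p = 0.00465). Irf7, the factor that amplifies interferon production, had 9.47, 10.29 and 11.48 in non-responders and 9.91, 10.63 and 11.52 in responders in study 2, and 9.70, 9.92 and 10.39 in non-responders and 9.68, 10.35 and 11.03 in responders in study 3. It overlapped between the groups in both studies and rose by 0.38 ± 0.14 (adjusted p = 0.0212). Irf9, the DNA-binding partner of STAT2, differed by -0.06 with an interval of -0.17 to 0.05, so a rise as large as that of Stat2 lies outside it.

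The 3 measured genes of ISG15 conjugation went different ways. Herc6, the main ligase that attaches ISG15 in mice, had 7.97, 8.68 and 9.16 in study 2 non-responders and 8.28, 9.33 and 9.98 in responders. In study 3 it had 8.07, 8.81 and 9.10 in non-responders and 8.07, 9.34 and 9.71 in responders. Ranges overlapped in both studies. Herc6 rose by 0.55 ± 0.14 (adjusted p = 0.00132), with 15 of 17 study 2 responders and 8 of 10 study 3 responders above the non-responder median. Usp18 removes ISG15 and shuts down the type I receptor. Its values were 10.31, 10.61 and 10.87 in study 2 non-responders and 9.82, 10.68 and 10.83 in responders. In study 3 they were 10.57, 10.94 and 11.29 in non-responders and 8.49, 10.67 and 10.93 in responders. In study 3 0 of 10 responders lay above the non-responder median, and in study 2 11 of 17 did. It fell by 0.31 (SE 0.12, adjusted p = 0.0307). Without the 3 tumours lowest in melanocyte transcripts the difference was -0.12 (adjusted p = 0.177), and no gene of the set was then called lower. Trim25, a ligase that activates the RNA sensor RIG-I, differed by 0.09 (adjusted p = 0.0977).

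The tetratricopeptide genes, whose products bind foreign RNA and keep it from the ribosome, were largely level. Ifit2 rose by 0.28 ± 0.12 (adjusted p = 0.0437), a call that was lost after median centring (adjusted p = 0.131). Ifit1 and Ifit3, each with 2 ISRE cores in the sequence printed above, differed by -0.11 (interval -0.32 to 0.11) and 0.08 (interval -0.20 to 0.36). Ifit1 had 9.99, 10.46 and 11.05 in study 2 non-responders and 9.79, 10.52 and 10.85 in responders. Most tumours of both outcomes lay in the same range. Ifit3 has a near-identical copy in the genome, Ifit3b, which its probe set may also read.

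The oligoadenylate synthetase family makes the messenger that activates an RNA-degrading nuclease. Oas3, the enzyme that responds to long double-stranded RNA, had 6.25, 7.32 and 9.34 in study 2 non-responders and 6.87, 8.22 and 10.17 in responders. The study 3 values were 6.36, 6.88 and 7.10 in non-responders and 7.07, 7.45 and 8.24 in responders. In study 3 the highest non-responder just passed the lowest responder, and 10 of 10 responders were above the non-responder median. The difference was 0.67 ± 0.21 (adjusted p = 0.0074). Oasl2, an OAS-like protein that carries ubiquitin-like domains, rose by 0.51 ± 0.14 (adjusted p = 0.00335). Oas1a, Oas2 and Oasl1 differed by -0.01, 0.18 and 0.17 and did not pass. Without the 3 tumours lowest in melanocyte transcripts Oasl1 passed, at 0.28 (adjusted p = 0.0264).

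Mx1 and Mx2, of a family of dynamin-like GTPases known for blocking viral nucleocapsids, moved in opposite directions. Whether mice of this strain make working Mx proteins was not measured. Mx1 had 6.29, 6.93 and 9.22 in study 2 non-responders and 6.74, 7.68 and 8.54 in responders, and 7.13, 7.72 and 8.28 in non-responders and 7.37, 8.14 and 8.70 in responders in study 3. It rose by 0.42 ± 0.17 (adjusted p = 0.0288), and the call was lost with quantile normalization within study (adjusted p = 0.0925). Mx2 had 6.69, 7.16 and 7.64 in non-responders and 6.59, 7.12 and 7.33 in responders in study 2, and 7.11, 7.38 and 7.80 in non-responders and 6.17, 7.05 and 7.5 in responders in study 3. It fell by 0.26 (SE 0.08, adjusted p = 0.00727). Without the 3 tumours lowest in melanocyte transcripts the difference was -0.16 (adjusted p = 0.0543), and without all 5 low tumours -0.18 (0.0231). Ranges of responders and non-responders overlapped for both genes in both studies.

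None of the 6 other antiviral effectors changed by limma at an adjusted p of 0.05, and 1 had an unadjusted p under 0.05. Rsad2 (viperin), which makes a chain-terminating nucleotide, and Cmpk2, its neighbour and nucleotide kinase, differed by 0.10 and -0.07. Bst2 (tetherin), which holds budding virus at the membrane, differed by -0.17 (interval -0.41 to 0.08). Its study 3 values were 12.81, 12.92 and 13.11 in non-responders and 10.71, 13.04 and 13.18 in responders, and the 2 lowest responders were the tumours with few melanocyte transcripts. Ifitm3, which blocks viral entry in endosomes, differed by 0.10 (adjusted p = 0.0525). Without the 3 tumours lowest in melanocyte transcripts Ifitm3 and Samd9l passed, at 0.16 and 0.17, as did Eif2ak2 at 0.31. Rtp4 differed by -0.14.

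All 4 genes of the group of ADP-ribosylation and tripartite motif proteins rose. Parp14, an ADP-ribosyl transferase active in lymphocytes and macrophages, had 8.08, 9.01 and 10.32 in study 2 non-responders and 8.94, 9.59 and 10.26 in responders. In study 3 the values were 8.68, 8.98 and 9.27 in non-responders and 9.38, 9.70 and 10.12 in responders. In study 3 Parp14 was the only gene of the 37 whose responders all lay above every non-responder (0.577% of all genes did so), while study 2 groups overlapped. The difference was 0.69 ± 0.13 (adjusted p = 0.00013). Dtx3l, a ubiquitin ligase that works in a pair with PARP9, had 8.82, 9.21 and 10.29 in non-responders and 9.04, 9.55 and 10.05 in responders in study 2, and 9.03, 9.23 and 9.38 in non-responders and 9.37, 9.67 and 10.04 in responders in study 3. In study 3 the groups met only where the highest non-responder and the lowest responder were level. Dtx3l had the smallest adjusted p of the set, 8.17e-05, at a difference of 0.42 ± 0.08. Parp9 rose by 0.18 ± 0.07 (adjusted p = 0.033), a call lost after median centring (adjusted p = 0.264). Trim30a, which restrains inflammatory signalling in mouse immune cells, had 8.18, 8.79 and 9.54 in study 3 non-responders and 9.16, 9.69 and 10.16 in responders, with overlap, and rose by 0.58 ± 0.12 (adjusted p = 0.000299).

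Of the 6 remaining genes, Epsti1, Lgals3bp, Tor3a and Ifi35 rose. Epsti1, first described as an epithelial-stromal interaction gene, had 7.34, 9.28 and 11.85 in study 2 non-responders and 8.5, 9.99 and 10.94 in responders. In study 3 it had 8.70, 9.83 and 10.51 in non-responders and 9.87, 10.67 and 11.77 in responders. The highest non-responder, study 2 replicate 14, had the highest value of all 90 tumours. The difference was 0.74 ± 0.21 (adjusted p = 0.00429). The other 3 probe sets of Epsti1, all dimmer, differed by 0.61, 0.04 and 1.05, and the first and last of these passed. Of the 37 genes 18 had more than 1 probe set, 46 in all, and 0 had probe sets called in opposite directions. Lgals3bp, a secreted glycoprotein that binds galectins, had 10.12, 10.53 and 11.01 in study 3 non-responders and 10.73, 11.12 and 11.52 in responders, with overlap, and rose by 0.48 ± 0.11 (adjusted p = 0.000787). Tor3a and Ifi35 rose by 0.31 and 0.23. Xaf1, which promotes apoptosis, and Sp100, a nuclear body protein, differed by 0.02 and 0.08 and did not pass. The second probe set of Sp100, nearly as bright, differed by 0.56 (adjusted p = 0.000814), so the probe sets of this gene disagree. Xaf1 passed without the 3 tumours lowest in melanocyte transcripts, at 0.18 (adjusted p = 0.0394).

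Within study 2 alone, 3 of the 37 genes rose, Dtx3l, Parp14 and Herc6, and 0.616% of all genes rose, 2.01% fell and 2.63% changed in all. None of the 37 fell there, with 17 of 37 at an unadjusted p under 0.05 in either direction. Within study 3, 7 rose and 2 fell, against 14.4% and 22.4% of all genes (36.7% in all). The 7 were Trim30a, Dtx3l, Parp14, Lgals3bp, Epsti1, Dhx58 and Tor3a, and the 2 were Mx2 and Usp18. Without the 3 tumours lowest in melanocyte transcripts, 9 rose and 0 fell in study 3, against 3.62% and 3.68% of all genes. Leaving out all 5 tumours with few melanocyte transcripts gave 17 risen genes in study 2, where the only tumour removed is nonresponder replicate 14, against 9.93% of all genes. Usp18 differed by -0.01 in study 2 and -0.60 in study 3, and in study 3 by -0.22 (adjusted p = 0.185) without the 3 tumours lowest in melanocyte transcripts. The difference between studies passed for no gene of the set and none of all genes (limma), with 2 of the 37 at an unadjusted p under 0.05.

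Against tumours of mice given control IgG, responders were higher in 19 genes and lower in none, while 15.3% of all genes rose and 20.1% fell (35.4% in all). The median difference of the 37 was 0.23, against -0.04 over all genes. The largest rises were Oas3 at 0.98 ± 0.21 (adjusted p = 0.000632), Epsti1 at 0.95 ± 0.22 (0.00107), Parp14 at 0.75 ± 0.14 (8.57e-05), Mx1 at 0.61 ± 0.17 (0.00524) and Herc6 at 0.61 ± 0.14 (0.00111). All 17 study 2 responders had more Parp14 than the IgG median, which was 8.85, and all 10 study 3 responders had more than every study 3 IgG tumour. That held for 0.429% of all genes and for no other gene of the 37. Usp18 and Mx2 differed from IgG by -0.14 and -0.06 and did not pass. Within study 2, 14 of the 37 rose, with 10.9% of all genes risen and 16.5% fallen (27.3% in all). Within study 3, 9 rose, with 9.2% risen and 8.18% fallen (17.4% in all). None of the 37 fell in either. Samd9l and Trim25 passed in this comparison, at 0.21 and 0.15. Responder and non-responder comparisons with IgG share their IgG tumours.

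Non-responders did not differ detectably from IgG tumours in any of the 37 genes, and 1 of all genes was called (0.0055%). At an unadjusted p under 0.05 there were 2, Ifit1 at 0.26 ± 0.11 and Mx2 at 0.20 ± 0.08, both above IgG. None was called under any of the alternative settings. Within study 2 alone none of the 37 was called and none had an unadjusted p under 0.05. Within study 3 alone none was called, 2 had an unadjusted p under 0.05, and 0.671% of all genes were called higher and 0.022% lower (0.693% in all). For Oas3 the interval of the difference ran -0.13 to 0.75, and for Parp14 -0.22 to 0.35, against differences of 0.98 and 0.75 in responders.

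Relapsed tumours had the highest mean over the 37 genes. All 37 genes were above IgG in the estimates, with a median difference of 0.40 against -0.04 over all genes, and 3 passed among these 6 relapses. Dhx58, Parp14 and Oas3 rose, at 0.71 ± 0.16 (adjusted p = 0.0309), 0.81 ± 0.21 (0.044) and 1.22 ± 0.33 (0.0469), while 0.385% of all genes rose and 0.704% fell (1.09% in all). Leaving out any 1 of the 6 relapses ended all 3 calls, while the count was 7 without study 2 PBS replicate 1 or 2, 7 without study 3 stabilization replicate 1, 6 without stabilization replicate 3 and 8 without study 3 PBS replicate 2. These last 5 tumours enter only through the shared estimate of spread. Oas3 was at 9.59, 8.52 and 8.08 in the study 2 relapses and 7.53, 7.60 and 7.47 in those of study 3. The IgG tumours had 6.06, 7.30 and 9.03 (lowest, median and highest) in study 2 and 5.62, 6.60 and 7.15 in study 3, so the groups were apart in study 3 and overlapped in study 2. Irf7, the amplifier, was at 11.43, 11.14 and 10.64 in study 2 relapses and 10.44, 10.55 and 10.38 in study 3 relapses, against IgG medians of 10.19 and 9.66, with an adjusted p of 0.0502.

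In study 3, 13 of the 37 genes had all 3 relapses above all 8 IgG tumours, as did 5.5% of all genes, among them Dhx58, Irf7, Oas2, Oas3, Oasl1, Oasl2, Mx1 and Tor3a. In study 2, Trim25 alone did so, against 0.506% of all genes. Against non-responders 14 genes rose in relapses and none fell, with 9.96% of all genes risen and 14.1% fallen (24% in all). In study 3, 12 of the 37 had all 3 relapses above all 9 non-responders, against 9.83% of all genes, and none did in study 2, against 0.066%. The 14 included Oas3 at 0.91 ± 0.33, Stat2 at 0.80 ± 0.26, Oasl2 at 0.77 ± 0.22, Ifitm3 at 0.22 ± 0.07 and Oas2 at 0.48 ± 0.18. Ifitm3 and Oas2 had not passed between responders and non-responders. No gene of the 37 differed between relapses and responders (limma), none had an unadjusted p under 0.05, and no gene of all 18194 passed. Relapse estimates were above responder estimates in 34 of 37 genes, with a median of 0.17.

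Stabilized tumours had lower Usp18, Cmpk2 and Bst2 than non-responders, and these differences rested on 1 tumour. Of the 37, 7 fell and 1 rose in study 3, against 18% and 13.3% of all genes (31.3% in all). Usp18 was at 8.07, 10.08 and 10.82 in the 3 stabilized tumours (replicates 1 to 3) and 10.57, 10.94 and 11.29 in non-responders, a fall of 1.27 (SE 0.28, adjusted p = 0.00156). Cmpk2 was at 6.34, 8.78 and 9.40, against 8.76, 9.34 and 9.88. Bst2 was at 10.46, 12.51 and 12.91, against 12.81, 12.92 and 13.11. Replicate 1 was far below the other 2 in each. Mx2, Ifit3, Ifit1 and Rtp4 also fell, and Trim30a rose by 0.71 ± 0.28 (adjusted p = 0.0448). Parp14 was at 9.30, 10.16 and 9.46, all above the highest non-responder, as in 3.1% of all genes, with an adjusted p of 0.0925. Without stabilization replicate 1, the tumour with a melanocyte marker mean of 6.74, no gene of the set was called in either direction. Without replicate 2, with a marker mean of 8.96, Trim30a was no longer called. Without replicate 3, whose marker mean was 10.28, 13 were called lower. The 3 genes lower than in IgG tumours were Cmpk2, Usp18 and Bst2, with 11.5% of all genes lower and 10.7% higher (22.2% in all); none was called once the tumours low in melanocyte transcripts were left out. Between stabilized and responder tumours none of the 37 passed, with 0.11% of all genes called (0.0769% higher and 0.033% lower) and 5 of the 37 at an unadjusted p under 0.05.

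The 2 growth delay tumours differed from neither IgG nor non-responders in any of the 37 genes or in any of all genes (limma), and none of the 37 reached an unadjusted p under 0.05. Among controls, none differed between IgG and PBS in study 2, none had an unadjusted p under 0.05, and 1 gene of all was called (0.0055%). In study 3, Stat2 alone was higher in IgG tumours, by 1.47 ± 0.35 (adjusted p = 0.0237), with 0.308% of all genes higher and 0.176% lower (0.484% in all). It was at 6.29, 4.82, 6.74 and 6.72 in the 4 PBS tumours and 6.76, 7.57 and 8.23 in IgG. PBS replicate 2, the array with the large 3 prime to 5 prime difference, was the lowest, and the other 3 were also below the lowest IgG tumour. Lgals3bp was lower in IgG tumours of study 3 than of study 2, by 0.59 (SE 0.17, adjusted p = 0.0149), with 5.8% of all genes lower, 3.7% higher and 9.5% in all.

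The next question was how each gene followed Ifng from tumour to tumour within a group. Ifng ranged from 3.70 to 8.43 over the 90 tumours, with medians of 5.03 and 5.92 in study 2 non-responders and responders and 5.17 and 7.67 in study 3. With the 12 group means in the model, 26 of 37 genes rose with Ifng and none fell, while 7% of all genes rose and 2.76% fell (9.77% in all). The median slope was 0.15 log2 per log2 of Ifng, against -0.01 over all genes. Epsti1 was steepest at 0.57 ± 0.07 (adjusted p = 7.42e-11), then Zbp1 at 0.52 ± 0.05 (2.51e-12), Oas3 at 0.43 ± 0.08 (9.99e-06), Mx1 at 0.42 ± 0.05 (1.18e-09) and Parp14 at 0.34 ± 0.04 (1.85e-09). Dtx3l had a smaller slope, 0.22 ± 0.02, but a tight one (adjusted p = 6.67e-12). The 11 genes that did not pass were Cmpk2, Ifit1, Lgals3bp, Bst2, Rtp4, Usp18, Ifitm3, Oas2, Eif2ak2, Irf9 and Mx2. Their flattest slopes were -0.02 for Mx2 (interval -0.09 to 0.05) and 0.02 for Irf9 (interval -0.03 to 0.06). The intervals of both leave out a slope as steep as that of Epsti1.

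**Figure D4:**
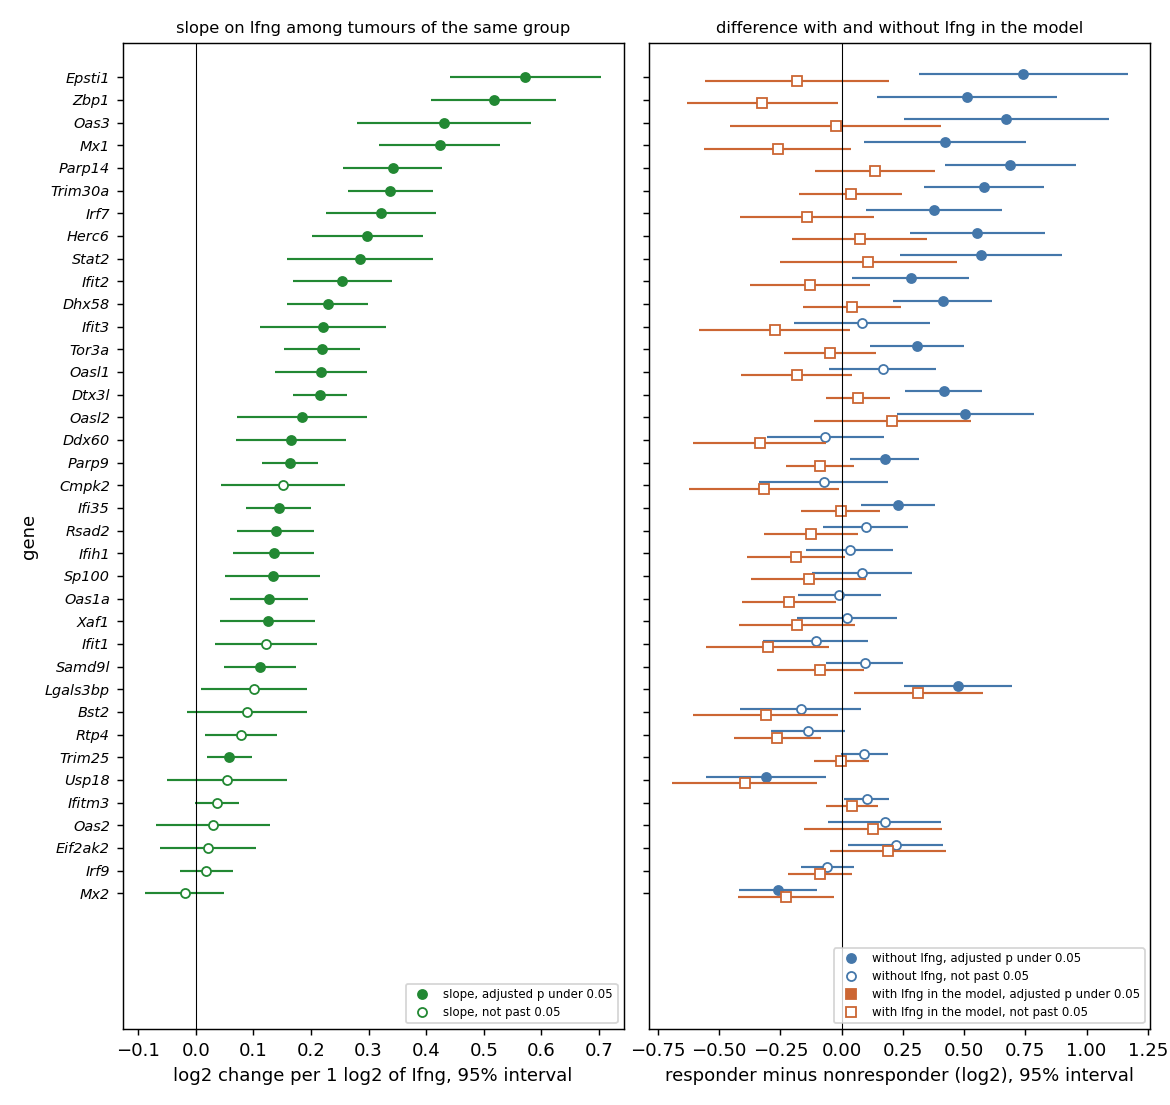
Left, the change of each gene per log2 of Ifng among tumours of the same group, with limma's 95% interval. Right, the responder minus non-responder difference (log2, 95% interval) without Ifng (circles) and with Ifng in the model (squares); filled symbols passed an adjusted p of 0.05. Of the slopes 26 are filled, and no square is.

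Slopes on Ifng were also found in tumours that never met the anti-PD-L1 antibody. In the 29 IgG and PBS tumours alone 12 genes rose with Ifng and none fell, against 1.45% of all genes risen and 0.066% fallen (1.51% in all). Zbp1 had 0.74 ± 0.11 (adjusted p = 0.000142) and Epsti1 0.81 ± 0.15 (0.00283). In study 2, 25 rose, with 11.6% of all genes risen and 10.4% fallen (22% in all). In study 3, 3 rose, Zbp1, Parp9 and Trim30a, against 0.434% of all genes risen and 0.0055% fallen (0.44% in all), and all 37 slopes were above 0. The mean of the 37 genes rose by 0.19 log2 per log2 of Ifng, with r = 0.591 and rho = 0.596 over 90 tumours after group means were removed, and r = 0.572 without the 2 tumours farthest out in Ifng. The r was 0.639 in study 2, 0.516 in study 3 and 0.626 in control tumours. For 23 genes of the interferon gamma response, such as Irf8, Cxcl9 and the guanylate-binding proteins, the mean rose by 0.56 per log2 of Ifng with r = 0.838. These points share arrays and one normalization, and the correlations are descriptions.

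With Ifng held equal in the model, no gene of the 37 differed between responders and non-responders by limma, while 0.126% of all genes were higher and 0.632% lower (0.759% in all). At an unadjusted p under 0.05 there were 10, and with array weights 7 genes passed as higher, where 16.6% of all genes did. After median centring 5 passed as lower, where 15.1% of all genes did. The median difference went from 0.18 to -0.13, and 11 of 37 estimates were above 0. Without the 3 tumours lowest in melanocyte transcripts the median was -0.01 with 15 above 0 and none called, and with array weights it was 0.03 with 19 above 0. Epsti1 went from 0.74 to -0.18 ± 0.19, Parp14 from 0.69 to 0.14 ± 0.12, Oas3 from 0.67 to -0.02 ± 0.22 and Dtx3l from 0.42 to 0.07 ± 0.07. Lgals3bp went from 0.48 to 0.31 ± 0.13 (adjusted p = 0.103), and Oasl2 from 0.51 to 0.21 ± 0.16. On the other side Usp18 stood at -0.40 ± 0.15 (adjusted p = 0.0812) and Rtp4 at -0.26 ± 0.09 (0.0725), and without the 3 low tumours at -0.11 (0.416) and -0.08 (0.293). Without them Epsti1 stood at -0.36, Parp14 at 0.09, Oas3 at -0.01 and Dtx3l at 0.06. Between responders and IgG tumours, with Ifng in the model, none of the 37 and none of all genes passed, and 2 of the 37 had an unadjusted p under 0.05. In study 3 Ifng ran from 6.14 to 8.25 in responders and from 4.03 to 6.52 in non-responders. These ranges overlapped only from 6.14 to 6.52, so the study 3 part of this fit leans on 1 slope common to all groups. Ifng is 1 probe set measured with error, and this fit sets no order of cause.

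The 37 genes rose and fell together within groups, but not as 1 block. After removing group means, the median correlation over the 666 pairs was 0.564 (lowest -0.279, highest 0.9), and the first component held 56.9% of their variance and the second 13.3%. Herc6 followed the mean of the others most closely (r = 0.927), with Ifit3 (0.91), Ifit2 (0.906) and Irf7 (0.903). Oas2 (0.433), Epsti1 (0.44), Lgals3bp (0.483) and Mx2 (0.492) followed it least. Irf7 and Dhx58 were the closest pair, and Usp18, Bst2 and Rtp4 formed another close trio with pairwise r of 0.863 to 0.868. In each trio gene, study 3 stabilization replicate 1 and responder replicates 3 and 4 held the lowest values of all 90 tumours. These tumours had few melanocyte transcripts, and pairwise r without them was not computed. Parp14 and Dtx3l had r = 0.865.

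The genes spread along an axis from those that followed Ifng to those that followed the melanocyte markers. Zbp1, Dtx3l, Trim30a and Epsti1 had r of 0.73, 0.729, 0.717 and 0.697 with Ifng, and 0.215, -0.096, -0.104 and -0.286 with the melanocyte mean. Bst2, Usp18, Mx2 and Rtp4 had 0.187, 0.116, -0.064 and 0.271 with Ifng, and 0.908, 0.826, 0.736 and 0.734 with the melanocyte mean. The melanocyte end of this axis rested largely on 5 tumours: without them, over 85 tumours, the values with the melanocyte mean were 0.301 for Bst2, 0.452 for Usp18, 0.546 for Mx2 and -0.013 for Rtp4. The Ifng end did not: Zbp1, Dtx3l, Trim30a and Epsti1 then had 0.743, 0.722, 0.713 and 0.717. The same 4 genes also followed the T cell marker mean, with r of 0.742, 0.741, 0.703 and 0.742 over the 85 tumours.

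**Figure D5:**
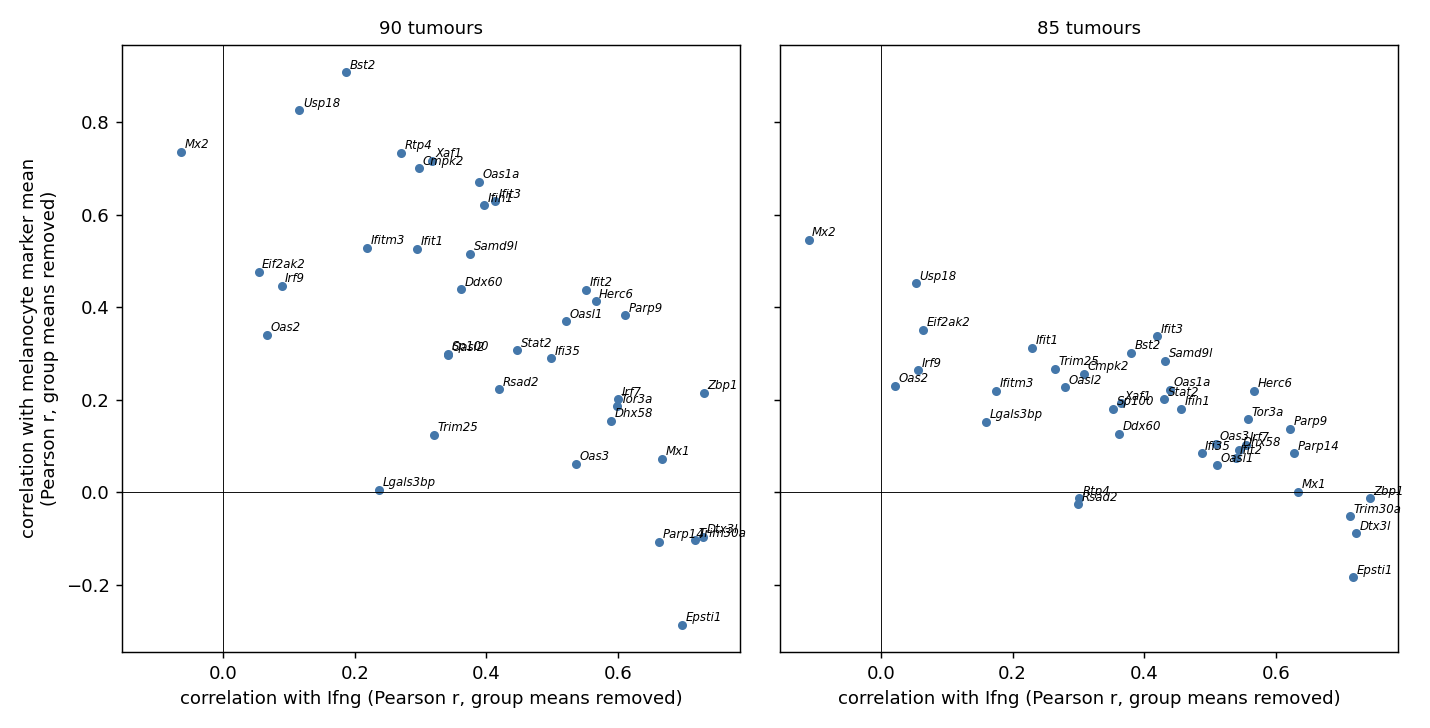
Each point is a gene, placed by its Pearson correlation with Ifng (x) and with the mean of 8 melanocyte markers (y), group means removed, over all 90 tumours (left) and over 85 without the 5 low in melanocyte transcripts (right). Bst2, Usp18 and Mx2 are at the upper left and Epsti1 at the lower right in the left panel, and the spread in y is smaller on the right.

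The melanocyte end of that axis rested largely on the tumours with few melanocyte transcripts, so their values restate it gene by gene. In study 3 stabilization replicate 1, responder replicate 3 and responder replicate 4, Bst2 was at 10.46, 10.78 and 10.71, Usp18 at 8.07, 9.07 and 8.49, and Mx2 at 6.05, 6.17 and 6.27. These are the 3 lowest values of all 90 tumours for each of the 3 genes. In the same tumours Epsti1 was at 10.21, 11.77 and 10.71 and Parp14 at 9.30, 9.72 and 10.12, all above the medians of study 3 non-responders. Stabilization replicate 1 was the lowest of its group in 35 of 37 genes. Study 2 nonresponder replicate 14, with 10.07 for the T cell mean and 11.52 for the B cell mean, had the highest Epsti1, Parp14 and Dtx3l of all tumours. Leaving out the 3 tumours lowest in melanocyte transcripts raised the count of genes higher in responders than in non-responders from 17 to 22 (with Ifitm3, Samd9l, Eif2ak2, Oasl1 and Xaf1 added), while the share of all genes called higher went from 18.9% to 13.9%. For responders over IgG the count went from 19 to 25 and the share of all genes from 15.3% to 8.11%.

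Other genes of the pathway, from lists by function, were read beside the set. In responders against non-responders 18.9% of all genes rose and 32.3% fell, and the counts in this paragraph stand beside these shares. Of 9 measured interferon ligand genes, none rose and 4 fell. The 4 were Ifna4 at -0.21 ± 0.06, Ifna1 at -0.21 ± 0.07, Ifna9 at -0.20 ± 0.06 and Ifnb1 at -0.22 ± 0.07 (limma, adjusted p = 0.00435 to 0.00967). Ifnb1, the beta interferon gene, had 4.79, 5.29 and 5.72 in study 2 non-responders and 4.80, 5.18 and 5.5 in responders, with all values of the 90 tumours between 4.43 and 5.93, and its mean was at the 27.5 percentile of all gene means. The means of Ifna4, Ifna1 and Ifna9 were at the 20.3, 39.2 and 33.6 percentiles. All 4 are thus dim genes. In a fit of only genes above the median level 25.2% fell, against 32.3% of all genes. The ligands were not compared with genes of like level. No ligand rose with Ifng. Of 13 genes for the receptor, its kinases, adaptors and regulators 12 rose and 1, Irf5 (-0.17), fell. The largest rises were those of Ptpn6 at 0.77 ± 0.18 and Socs3 at 0.76 ± 0.17, which both curb cytokine signals, and of the kinase Ikbke at 0.66 ± 0.12. The receptor kinase Tyk2 rose by 0.43 ± 0.09 and the receptor chain Ifnar2 by 0.35 ± 0.08. Of 8 other nucleic acid sensors 3 rose, Unc93b1 (0.86), Sting1 (0.52) and Tlr7 (0.74), and 2 fell, Tlr9 (-0.17) and the DNA sensor Cgas (-0.32), beside 18.9% and 32.3% of all genes. Of 30 other interferon stimulated genes 18 rose and 2 fell (Oas1b and Pnpt1), with Uba7, the ISG15 activating enzyme, at 0.76 ± 0.11 (adjusted p = 1.67e-05), Trim12c at 0.70 and Nlrc5 at 0.59. All 23 interferon gamma response genes rose, with a median of 0.92, Gbp2b at 2.08, Gbp8 at 2.02 and Irf8 at 1.49. The whole lists had medians of -0.09 (ligands), 0.35 (receptor, kinases and regulators), 0.16 (sensors) and 0.38 (other interferon stimulated genes), against 0.18 for the 37 genes.

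Genes outside the set that followed its mean most closely within groups were Psmb10 (r = 0.905 over 90 tumours), Gbp7 (0.873), Gm4951 (0.869), Gbp6 (0.86), Psmb8 (0.858), Irgm1 (0.846), Irgm2 (0.845), Gbp3 (0.84), Batf2 (0.837) and Igtp (0.836). Psmb10 and Psmb8 encode immunoproteasome subunits, and the Gbp and Irgm genes encode interferon-induced GTPases. Of genes outside the set, 42 had r above 0.7 and 189 above 0.5. The median slope on Ifng was 0.137 in the 12 genes with the core in their window and 0.151 in the 15 without, and the median difference between responders and non-responders was 0.091 and 0.229.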

How the data were processed

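RNA of 90 tumours (800 ng each) was measured on arrays of 45101 probe sets. The deposited log2 values were made by the authors with RMA, per the submitters' processing notes. They ran from 2.19 to 14.84, with array medians of 5.71 to 5.9. No array pair was identical. Labels and headers do not say if RMA was run on both studies at once. A single symbol was given to 34958 probe sets, several to 932 and none to 9211, and the brightest probe set stood for each of 18194 genes.

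The members and lists were chosen with earlier results of these data known. limma 3.58.1 (R 4.3.3) fitted a mean for each of 12 groups. Responder, non-responder, relapse and IgG differences weight both studies equally. Slopes use log2 Ifng with group means in the model (18193 genes, Ifng left out). Tests are two-sided, p-values were adjusted by Benjamini-Hochberg across every gene tested, and 0.05 was the threshold. A ± after a difference or slope is limma's standard error, and after a level the SD among tumours. Correlations are over values with group means removed. Low tumours had a melanocyte mean more than 2 log2 (3 tumours) or 1 log2 (5 tumours) below the median, the second rule added after seeing the data. Genes named were up to 5 called genes in each direction per comparison, by size, and at least 1 of each role, Ifng, the 3 genes of lowest p of each pathway list, and the 10 genes closest to the mean of the set. Further pathway genes (Ifnb1, Ptpn6, Socs3, Irf5, Tlr9, Cgas, Oas1b and Pnpt1) were named after their values were seen. The fits were tested on simulated data. The array number, not a read depth, limits precision. Promoter windows came from RefSeq.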

Additional observations from a re-analysis of the deposited data

Results flagged for a closer look

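Within groups of 4 to 10 tumours, 156 sets of values were screened for a tumour far from the others (Dixon's 95% value), a screen that flags about 1 in 20 by chance, and 10 stood out. Among the 4 PBS tumours of study 3, replicate 2, the array with the large 3 prime to 5 prime difference, was highest for the antiviral genes Eif2ak2 (9.17, next 8.17), Oas2 (10.15, next 8.54), Oasl1 (8.44, next 7.77) and Oasl2 (10.2, next 8.42), and lowest for Rtp4 (11.6). Its part in these values was not tested.

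In study 3 IgG tumours, replicate 6 was lowest for Mx2 (6.74) and replicate 8 for Parp14 (8.13). Among study 3 responders, replicate 4 was lowest for Samd9l (10.2) and Sp100 (7.88), and replicate 3 highest for Epsti1 (11.77, next 10.84). Responder replicates 3 and 4 are the responders with the fewest melanocyte transcripts, with marker means of 6.58 and 6.45. No difference of responders from non-responders between the studies passed the test in any of the 37 genes.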

How the results depend on the processing

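Of 589 recomputed differences of the genes called between responders and non-responders, 21 kept direction but lost the call, 0 reversed, and the others kept both. Of the 31 alternatives for each gene, 18 left out a tumour of another group. Those cannot move a difference between responders and non-responders, only the shared estimate of spread. The 17 higher genes became 11 at a threshold of 0.01, and the 2 lower genes 1 with array weights (a fit that stopped before converging), 4 after median centring, 0 and 1 without the 3 and the 5 tumours low in melanocyte transcripts, and 1 at 0.01. Responders over IgG went from 19 to 30 with array weights. The 3 genes of relapses over IgG became 28 with array weights, 0 with the mean of a gene's probe sets, 1 among genes above the median level, 10 after median centring, 0 with quantile normalization within study, 7 and 9 with the 3 prime to 5 prime covariate (all arrays, and without the array of the largest difference), 14 and 22 without the 3 and the 5 low tumours, 19 with only the groups compared, and 0 at 0.01. For stabilization against non-responders, the 1 higher gene became 18 with array weights, 2 with the mean of probe sets, and 0 after median centring, quantile normalization, both removals of low tumours and at 0.01; the 7 lower genes became 11 after median centring, 0 and 0 without low tumours, 2 with only the groups compared and 4 at 0.01. Array weights also raised the share of all genes called higher, to 19.2% over IgG in responders, 22.4% over IgG in relapses and 29.5% in stabilization. With Ifng in the model, 7 were higher with array weights and 5 lower after median centring. Leaving out 1 tumour of the groups of 2 to 4 gave 17 to 19 and 2 to 2 genes for responders against non-responders, 19 to 19 for responders over IgG, 0 to 0 for non-responders against IgG, 0 to 8 for relapses over IgG, 0 to 1 higher and 0 to 13 lower for stabilization, and 24 to 28 slopes. For differences among responders, non-responders and IgG tumours, none of the tumours compared was left out. Only the shared estimate of spread changed there. Except where a tumour was left out, the cause of these changes was not tested. Median centring moved the median difference of all genes from -0.06 to -0.15. No paired analysis was possible because replicate numbers follow the order of the samples and the labels give every tumour its own animal number.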
